A study of Mus musculus with 10 samples.

Results

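The imprinted Dlk1-Meg3 and Igf2-H19 loci were described in the open chromatin of 3T3-L1 preadipocytes, a line of mouse fibroblasts that turn into fat cells when induced. Members were the DNase I hypersensitive (DHS) sites that overlapped either of 2 fixed windows of the mm9 genome by 1 bp or more, and the footprints inside those sites. The Dlk1-Meg3 window was chr12:110590000-110910000 (320 kb) and the Igf2-H19 window was chr7:149660000-149960000 (300 kb). They held 17 and 15 sites, together 32 of 129028 sites in the list, and 59 and 24 footprints of 329076. The windows were fixed by position and not by any measured value. Gene models of the mm9 build were not used here, so sites are given by position within a window and are not tied to Dlk1, Meg3, Igf2 or H19 one by one.

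DNase I cuts accessible DNA, so a stretch with many cuts is a DHS site. A short stretch in it with few cuts, a footprint, is read as DNA shielded by bound protein. The DNase group was harvested 4 h after the cells had been given an adipogenic mix of dexamethasone (1 μM), 3-isobutyl-1-methylxanthine (0.5 mM), insulin (1 μg/mL) and 10% fetal calf serum. Its 2 samples are sequencing runs of 1 library, which the authors pooled with earlier reads of that library, and no untreated DNase sample was among those analysed. The labels name no allele, transgene or knockdown for the DNase group. The other 8 samples, RNA at 0 h and 4 h from cells that carried shRNA, either scrambled or directed at C/EBPβ, were not analysed here, so no RNA level of any member is given. With 1 library there is no replicate, and every value below is a description without a test.

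Both loci are textbook cases of genomic imprinting, in which a gene is transcribed from the allele of 1 parent. On chromosome 12, the protein-coding Dlk1 is expressed from the paternal allele and the long noncoding RNA Meg3 from the maternal allele, under a differentially methylated region between them. Dlk1 encodes Pref-1, a transmembrane protein with EGF-like repeats that preadipocytes carry, whose shed outer part inhibits adipogenesis, and whose level falls as fat cells form. On chromosome 7, the growth factor gene Igf2 is paternally expressed and the noncoding RNA H19 maternally expressed. There a control region near H19 binds the insulator protein CTCF on the maternal allele and separates Igf2 from enhancers that both genes use. The deposited lists do not separate the parental alleles.

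The order of genes was read from the RefSeq annotation of another build, GRCm38.p6, which matched 7 of 7 genes looked up on chromosome 12 and 9 of 9 on chromosome 7. From low to high coordinate it runs Begain, Dlk1, Meg3, Rtl1, Rian, Mirg and Dio3 on chromosome 12. On chromosome 7 it runs Lsp1, Tnnt3, Mrpl23, Nctc1, H19, Igf2, Ins2, Th and Ascl2. How far into this order each window reaches was not analysed here.

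RefSeq promoters, each 300 bases from 250 before to 50 after a transcription start, are shown because transcription of the named genes begins in them. They were searched for motifs of factors that the adipogenic mix acts on, of general promoter elements and of CTCF. The RefSeq table of GRCm38.p6 had entries for 3 of the 4 members, with 1 start for Dlk1, 2 for Meg3 and 4 for Igf2. H19 had none. Capitals mark matches, on either strand, to the motifs listed after the sequences. The first is the Dlk1 start, at chr12:109452573-109452872 on the plus strand of GRCm38.p6.
Dlk1: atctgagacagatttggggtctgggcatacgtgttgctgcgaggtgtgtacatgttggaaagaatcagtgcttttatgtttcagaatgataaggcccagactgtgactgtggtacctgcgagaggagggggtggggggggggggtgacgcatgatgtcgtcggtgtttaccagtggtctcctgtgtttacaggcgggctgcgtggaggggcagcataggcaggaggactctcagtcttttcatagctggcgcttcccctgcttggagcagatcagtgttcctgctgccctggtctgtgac
The second is the upstream Meg3 start, at chr12:109540746-109541045 on the plus strand of GRCm38.p6.
Meg3: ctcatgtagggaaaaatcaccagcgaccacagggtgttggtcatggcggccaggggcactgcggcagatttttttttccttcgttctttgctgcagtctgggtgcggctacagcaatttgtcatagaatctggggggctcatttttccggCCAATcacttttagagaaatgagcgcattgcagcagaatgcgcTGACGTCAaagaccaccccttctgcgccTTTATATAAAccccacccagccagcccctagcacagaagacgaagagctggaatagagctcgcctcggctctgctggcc
The next pair are the 2 Igf2 starts that held a match, start 3 in the direction of transcription at chr7:142658755-142659054 and start 4 at chr7:142657447-142657746, both on the minus strand of GRCm38.p6.
Igf2 start 3: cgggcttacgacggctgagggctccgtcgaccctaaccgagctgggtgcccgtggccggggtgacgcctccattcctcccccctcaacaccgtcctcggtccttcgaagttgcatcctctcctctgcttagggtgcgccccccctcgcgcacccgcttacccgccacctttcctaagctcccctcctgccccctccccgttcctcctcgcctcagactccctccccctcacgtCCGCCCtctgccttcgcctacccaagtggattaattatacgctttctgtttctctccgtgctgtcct
Igf2 start 4: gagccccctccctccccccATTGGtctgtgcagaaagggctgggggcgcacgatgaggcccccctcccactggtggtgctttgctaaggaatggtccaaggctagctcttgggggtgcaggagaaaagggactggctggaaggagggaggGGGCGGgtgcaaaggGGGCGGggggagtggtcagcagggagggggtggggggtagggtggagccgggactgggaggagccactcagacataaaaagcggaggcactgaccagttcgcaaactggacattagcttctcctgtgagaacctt

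The upstream Meg3 start held the most motifs of the 7 promoters. It had a full cyclic AMP response element, TGACGTCA, beginning 57 bases before the start, a motif held by 1.79% of the 32851 promoters in the table. It also had CCAAT, beginning 100 bases before the start, and TATAAA on both strands, beginning 29 and 25 bases before it and overlapping each other by 2 bases. CCAAT occurred in 37.4% of all promoters and TATAAA in 13.6%. Igf2 start 4 had GGGCGG, the GC box, beginning 100 and 85 bases before the start, and CCAAT on the minus strand 231 bases before it. Igf2 start 3 had GGGCGG on the minus strand 17 bases before it, and GGGCGG occurred in 35.7% of all promoters. The Dlk1 start, the other Meg3 start and the first and second Igf2 starts held none of the motifs searched.

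None of the 7 promoters held the AP-1 motif TGANTCA (7.81% of all promoters), the C/EBP motif TTGCNNAA (10.8%) or the STAT motif TTCNNNGAA (8.30%). None held the longer motifs searched for the glucocorticoid receptor (0.414%) or CTCF (0.0365%). Both strands were searched, and these letters being absent says nothing of a factor's binding. Igf2 start 3 was the richest of the 7 in CpG, with 24 CpG dinucleotides and 64.7% G or C, against medians of 7 and 52.7% over all promoters. The Dlk1 start had 9 CpG and 55.7% G or C. As the builds differ, it was not analysed whether a DHS site covers any of these stretches.

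The numbers of sites in the windows were ordinary, whereas the numbers of footprints differed between them. The Dlk1-Meg3 window had 5.31 sites per 100 kb and the Igf2-H19 window 5.00, a ratio of 1.06. The chromosomes as a whole had 4.81 on chromosome 12 and 4.58 on chromosome 7. Footprints numbered 18.4 per 100 kb in the Dlk1-Meg3 window and 8.00 in the Igf2-H19 window, a ratio of 2.30, against 10.04 on chromosome 12 and 12.9 on chromosome 7. The Dlk1-Meg3 window thus lay above the rate of its chromosome in footprints and the Igf2-H19 window below that of its own. That rate is a mean. The median 300 kb stretch, described next, held 19 footprints against 24 in the Igf2-H19 window.

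Set beside tiles of equal length laid end to end along every chromosome except Y, both windows were near the middle for sites. A tile of 320 kb had a median of 15 sites (interquartile range 11 to 20, 8047 tiles), and 56.2% of tiles had fewer than the 17 of the Dlk1-Meg3 window. A tile of 300 kb also had a median of 15 (10 to 19, 8584 tiles), and 49.7% had fewer than the 15 of the Igf2-H19 window. For footprints, 73.6% of the 320 kb tiles had fewer than 59, with a median of 21 and an interquartile range of 1 to 62. Of the 300 kb tiles, 53.4% had fewer than 24, with a median of 19 and a range of 1 to 58. Both windows therefore lay inside the interquartile range of tiles in both counts. Among the 475 tiles that also had 17 sites the median was 36 footprints (5.5 to 65), and among the 560 tiles that also had 15 sites it was 21 (2 to 56).

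**Figure D1:**
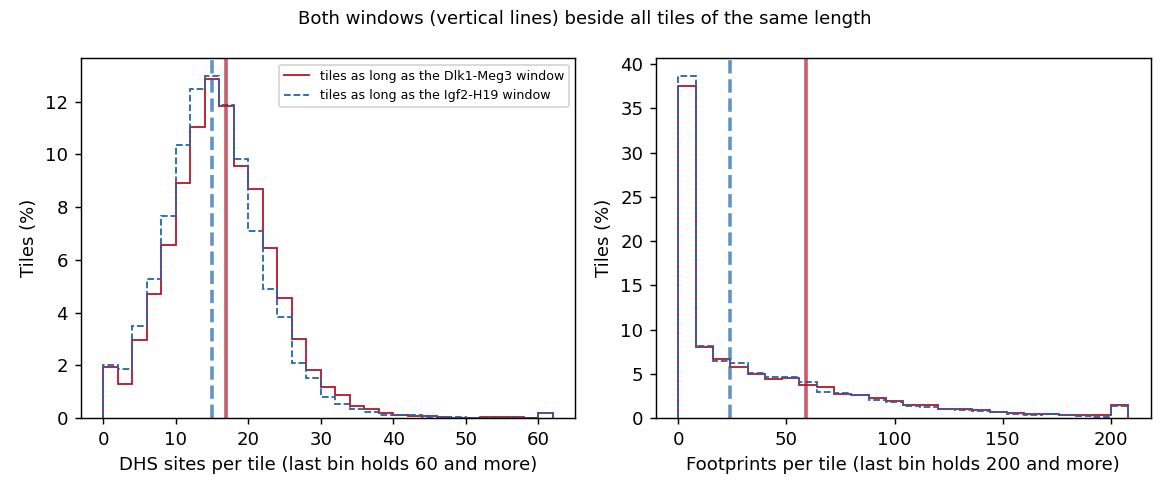
Distribution of DHS sites (left) and footprints (right) per tile, in percent of tiles, for tiles of 320 kb (solid, red) and 300 kb (dashed, blue), with vertical lines at the Dlk1-Meg3 window (17 sites, 59 footprints) and the Igf2-H19 window (15 sites, 24 footprints). Both windows stand near the peak of the site counts. For footprints, the Dlk1-Meg3 line lies to the right of the Igf2-H19 line, and both are inside the interquartile range of tiles (1 to 62 and 1 to 58).

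A footprint was present in 10 of 17 Dlk1-Meg3 sites, 58.8% (95% exact binomial interval 32.9 to 81.6%), and in 7 of 15 Igf2-H19 sites, 46.7% (21.3 to 73.4%). Over all sites the share was 45.4%, which lies inside both intervals. These intervals cover counting error only and treat sites as independent. Sites with 5 or more footprints numbered 5 in the Dlk1-Meg3 window and 2 in the Igf2-H19 window, 29.4% and 13.3% of their sites, against 19.3% of all sites. With so few sites in a window, these shares are read as no result about the loci.

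**Figure D2:**
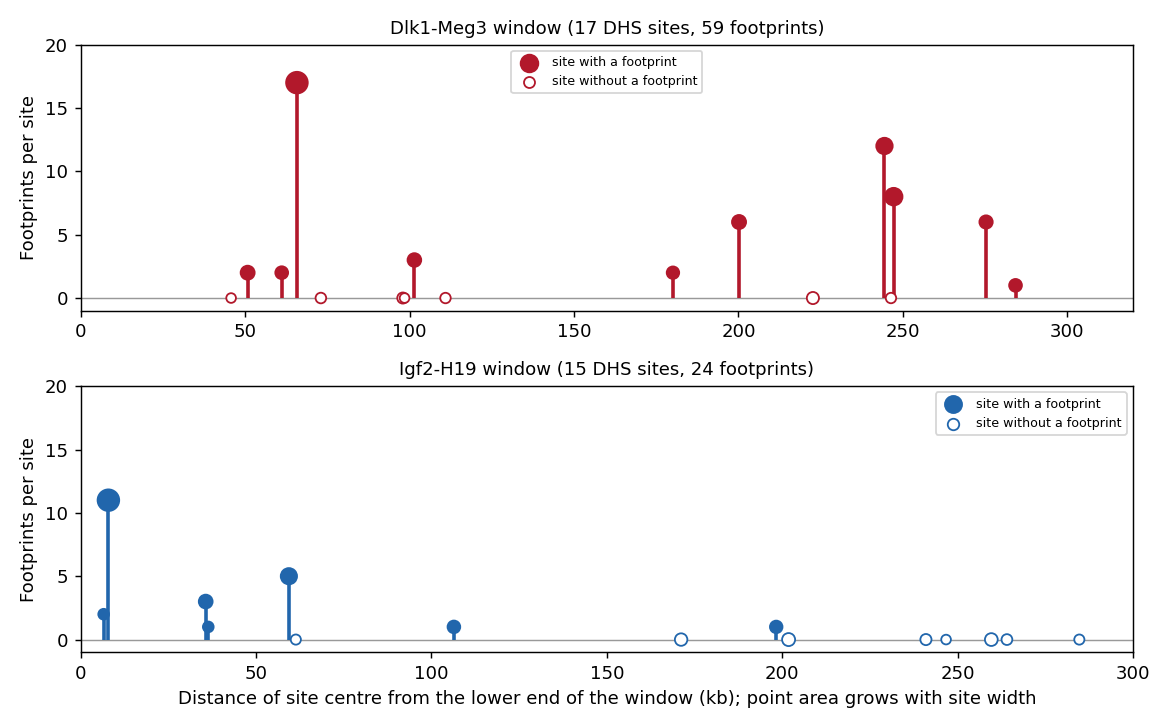
Footprints per DHS site (vertical axis) by distance of the site's centre from the lower end of the window in kb (horizontal axis), with the Dlk1-Meg3 window above and the Igf2-H19 window below; filled points are sites with a footprint, white points sites without, and point area grows with site width. Dlk1-Meg3 footprints are spread over sites centred 50.8 to 284.2 kb from the lower end, whereas all but 2 of the Igf2-H19 footprints lie within 60 kb of the lower end.

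Within the Dlk1-Meg3 window the footprints fell in 2 main stretches. With the window divided into 5 equal parts of 64 kb, the second part held 20 footprints, in 2 of its 6 sites. The fourth part held 26, in 3 of its 5 sites. A single site, centred 65.8 kb from the lower end and so just past the 64 kb bound, held 17 of the 20. A group of 3 sites within 3.96 kb held 20 of the 26. The first, the third and the fifth part held 4, 2 and 7. Between the main stretches lay the longest gap between neighbouring sites, 68.7 kb from 110701086 to 110769808, and 4.73% of all gaps between sites in the list were as long or longer. The median gap in the window was 8.65 kb, against 10.3 kb over all sites.

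The site with the most footprints was the fourth of the window, chr12:110654773-110656747. It was 1975 bp wide and held 17 footprints, or 8.61 per kb, and 17.1% of its length was footprint. The 500 sites nearest in width, 1914 to 2061 bp, averaged 16.1 footprints, and 52.2% of them had fewer than 17. The centres of 2 footprints lay in the lower part of the site and those of the other 15 from -40 to 650.5 bp relative to its centre. Its scores reached the most negative values of both windows. The score is the authors' value for each footprint. It is negative throughout and of a scale not stated in the labels or headers, and more negative was read as stronger. The 3 lowest of the window were all in this site, -11.2 at 110656118 to 110656129, -10.97 at 110656082 to 110656108 and -10.7 at 110655977 to 110655991. The median of its 17 scores was -6.78, against -4.38 over all footprints with a finite score.

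The next sites by footprint number were a close pair farther up the window. The site chr12:110833853-110834915 was 1063 bp wide and held 12 footprints, against a mean of 7.91 for its class of site width, 1 of 50 over all sites. Its density of 11.3 footprints per kb was the highest of the 32 sites. Its footprints spanned 551 bp, with a median gap of 12 bp and a lowest score of -7.96. The site chr12:110836557-110837807, 1251 bp wide, held 8 footprints with gaps of 2 to 138 bp, against 9.04 for its class. A narrow site of 321 bp between them, chr12:110836201-110836521, held none. Together the 3 sites spanned 3.96 kb and held 20 of the 59 footprints.

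They were followed by 2 sites with 6 footprints each, chr12:110789800-110790534 (735 bp) and chr12:110864953-110865586 (634 bp). The first had footprints spaced 9 to 26 bp apart within 219 bp. The second stood above its width class by more, since the class averaged 1.86 footprints and 93.8% of its 2581 sites had fewer than 6. The other 5 sites with footprints held 1 to 3 each and were 535 to 724 bp wide. Among them, the site chr12:110691125-110691807 held 3 in 683 bp, against 2.85 for its class. The 5 leading sites held 49 of the 59 footprints (83.1%) in 50.8% of the site sequence. They were picked by footprint number, so a large share follows from the choice and is not read as a trait of the locus.

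Accessible sites without footprints in the Dlk1-Meg3 window were narrow. All 7 were 251 to 499 bp wide, below the list's median of 532 bp. Of the 10 wider sites, 10 held a footprint, against 75.3% of all sites wider than the median. None of the 7 narrower sites did, against 15.7% of all such sites. With so few sites, neither share is read as a result about the locus. Below the window's first site, sites were absent for 284.7 kb, from 110350936 to 110635624, a stretch that runs past the window's lower end. Of 129007 gaps between neighbouring sites in the list, 93 (0.0721%) were as long. The adjoining 320 kb below the window thus held 2 sites and 5 footprints, and the 320 kb above it 23 sites and 94 footprints, with a footprint in 82.6% of the latter.

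In the Igf2-H19 window nearly all footprints lay at the lower end. Divided into 5 equal parts of 60 kb, the first part held 5 sites, each with a footprint, and 22 of the 24 footprints (91.7%). The other 4 parts held 10 sites, of which 2 had 1 footprint each. No footprint lay in the last 101.8 kb, from 149858245 to the window's upper end, where 6 further sites were listed. The longest gap between sites was 64.2 kb, from 149766669 to 149830883, with 5.53% of all gaps in the list as long. The median gap was 16.4 kb.

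The leading site, the second of the window, was chr7:149666927-149668895, with a width of 1969 bp and 11 footprints. This width is close to the 1975 bp of the leading Dlk1-Meg3 site. The 500 sites nearest in width, 1909 to 2050 bp, averaged 16.02 footprints, and 25.6% of them had fewer than 11. Its lowest score was -7.23, at 149667271 to 149667294, and its second lowest -5.49, at 149667201 to 149667215. Of its footprints 9 were centred below the site's centre and 2 above, and 788 bp between these sets held none. The neighbouring site chr7:149666392-149666744 held 2 footprints in 353 bp, a width at which 88.0% of sites had none.

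Next in number was the site chr7:149718840-149719877, with 5 footprints in 1038 bp, 59 to 88 bp apart, against 6.93 for its class. It held the third lowest score of the window, -5.30 at 149719274 to 149719300. The site chr7:149695299-149695997 held 3 in 699 bp, against 3.04, and its neighbour chr7:149696207-149696556 held 1 in 350 bp. These 5 sites were all those of the lowest 60 kb with a footprint.

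The remaining stretch of the Igf2-H19 window had sites with little or no footprint. Of its sites, chr7:149766108-149766668 (561 bp) and chr7:149857984-149858528 (545 bp) had 1 footprint each, both 30 bp wide, the upper limit of the list, with scores of -3.67 and -3.57 close to the list's highest value of -3.54. At those widths the class means were 1.07 and 0.861 footprints. The 8 sites without a footprint were 252 to 600 bp wide. Of the window's 8 sites wider than 532 bp, 5 held a footprint, and of its 7 narrower ones 2 did, against the 75.3% and 15.7% of all such sites.

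The Igf2-H19 count rested on the edge of the window and on 1 site. The leading site and its neighbour lay within 10 kb of the lower end, and without the leading site the window had 13 footprints. A window narrowed by 20 kb at each end held 11 and one widened by 20 kb held 38. Just outside, 2.56 kb below the edge, was a site of 1477 bp with 8 footprints, and the first site above, 14.3 kb away, had 0. The adjoining 300 kb held 70 footprints in 24 sites below and 75 in 21 sites above, more than the 24 in 15 sites of the window. For Dlk1-Meg3 the narrowed window held the same 59 and the widened one 62.

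Site width was set beside footprint number, since wide sites hold more footprints throughout the list. Median widths were 574 bp in the Dlk1-Meg3 window, 537 bp in the Igf2-H19 window and 532 bp over all sites, but the upper quartiles were 724, 586.5 and 719 bp. The widest 40% of all sites included 7 of the 17 Dlk1-Meg3 sites and 4 of the 15 Igf2-H19 sites. Summing the mean of each site's width class gave 53.2 expected footprints for Dlk1-Meg3 and 36.5 for Igf2-H19. The observed 59 and 24 were 1.11 and 0.657 times these. The widest class ran from 1794 to 13152 bp and held the leading site of each window below its median width of 2143 bp. With the mean of the 500 sites nearest in width in place of the class, the ratios were 1.18 and 0.742. With the class means kept and the leading site left out of each window, they were 1.27 and 0.792. In the Dlk1-Meg3 window 6 sites were above their class mean and 11 below, and in the Igf2-H19 window 3 were above and 12 below. Over all sites 29.7% were above, beside 35.3% and 20% in the windows, since a site without a footprint always counts as below. Read depth was not given with the lists, so the part of the number of cuts in these values was not tested.

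**Figure D3:**
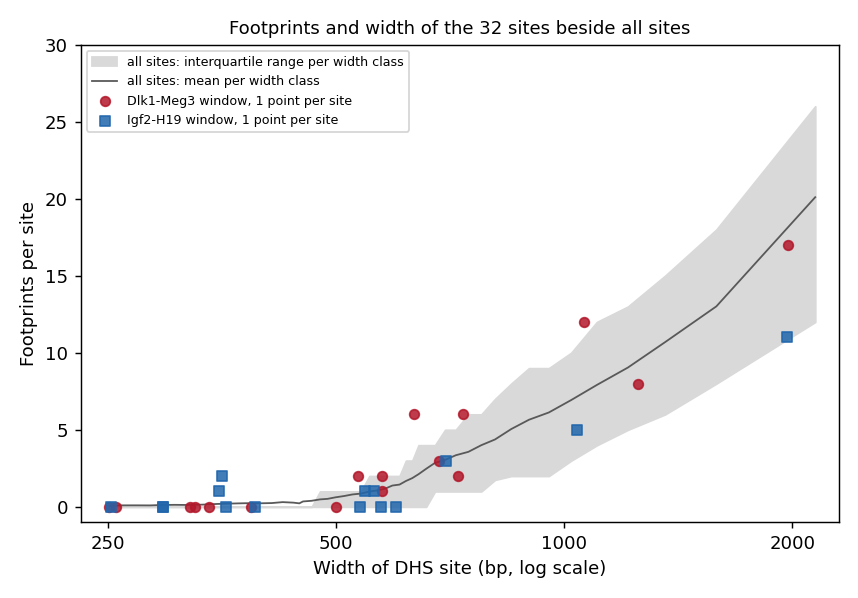
Footprints per site against site width in bp (log scale) for the 17 Dlk1-Meg3 sites (red circles) and the 15 Igf2-H19 sites (blue squares), over the mean (line) and interquartile range (grey) of all sites in 50 width classes. The leading sites of the windows, 1975 and 1969 bp wide, held 17 and 11 footprints beside a mean of 20.1 in the widest class (1794 bp and over), and the narrow sites of the Dlk1-Meg3 window lie at 0.

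The footprints of the windows also differed in score and width. Of the 59 Dlk1-Meg3 footprints, 33 (55.9%) had a score below the list's median of -4.38, and their own median was -4.49. Of these 33, 12 were in the site with 17 footprints, and the other 42 footprints had a median of -4.31. Of the 24 Igf2-H19 footprints, 4 (16.7%) did, with a median of -3.72. All 4 lay in the sites with 11 and 5 footprints. Footprints had a median width of 21 bp in the Dlk1-Meg3 window, as in the whole list, and of 26 bp in the Igf2-H19 window. The limit of 30 bp was reached by 10 Dlk1-Meg3 footprints (16.9%) and 5 Igf2-H19 footprints (20.8%), against 11.6% of the list.

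**Figure D4:**
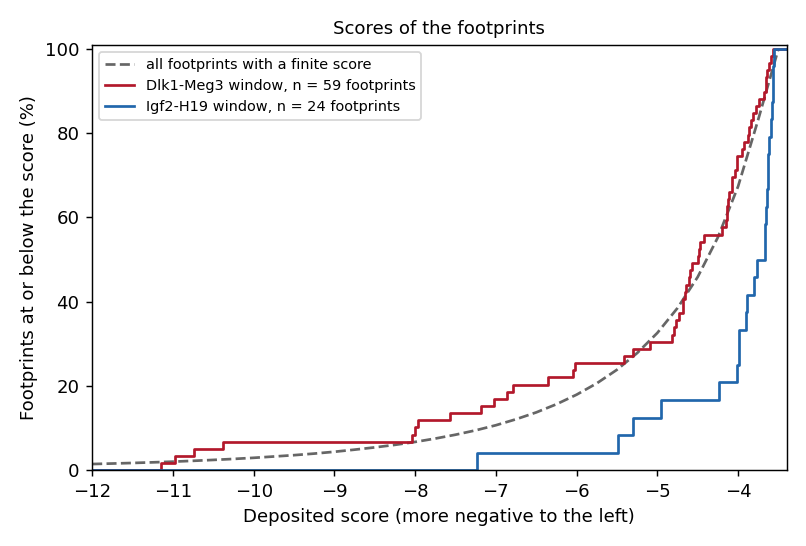
Percent of footprints (vertical axis) at or below each deposited score (horizontal axis, more negative to the left) for the Dlk1-Meg3 window (red, 59 footprints), the Igf2-H19 window (blue, 24 footprints) and all footprints with a finite score (dashed). The red curve lies above the dashed one at -7 (16.9% against 10.7%) but not at -11 (1.69% against 2.04%). It is close to the dashed curve at -5 (30.5% against 32.6%). The blue curve rises late, with 20 of its 24 footprints above the list's median of -4.38.

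Placement inside the sites differed as well. Footprint centres in the Dlk1-Meg3 window lay on average 0.249 of the way from a site's centre to its edge, near the 0.292 of the whole list, and 52 of 59 (88.1%) were nearer to the centre than to the edge, against 83.1% of the list. In the Igf2-H19 window the mean was 0.439 and 13 of 24 (54.2%) were nearer to the centre. Gaps between neighbouring footprints of a site had a median of 23 bp (49 gaps) in the Dlk1-Meg3 window and of 60 bp (17 gaps) in the Igf2-H19 window, against 20 bp in the list. Footprints covered 10.9% of the Dlk1-Meg3 site sequence and 6.26% of the Igf2-H19 site sequence, against 8.19% over all sites. The Igf2-H19 placement came from the leading site, where the mean was 0.563 and 3 of 11 footprints were nearer to the centre. In its other sites the mean was 0.334 and 10 of 13 were. The leading Dlk1-Meg3 site was also less central, with a mean of 0.320 and 12 of 17 footprints nearer to the centre. In the other Dlk1-Meg3 sites these were 0.221 and 40 of 42. The Igf2-H19 gaps went the other way, with a median of 28.5 bp in the leading site and of 84 bp (59 to 89 bp, 7 gaps) in the other sites.

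**Figure D5:**
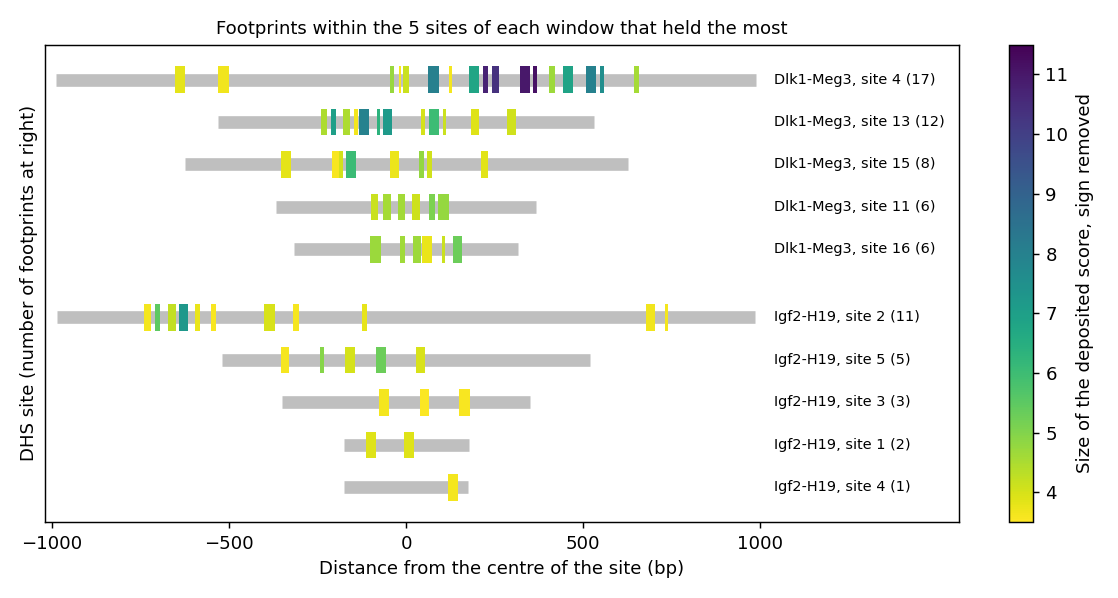
Position of each footprint (coloured bars, by the size of the deposited score with its sign removed) along the 5 sites of each window with the most footprints (grey bars), as distance from the site's centre in bp. The darkest bars, the scores from -10.4 to -11.2, lie together above the centre of the fourth Dlk1-Meg3 site. The 11 footprints of the second Igf2-H19 site lie mostly below its centre, with 2 centred 689.5 and 734 bp above it.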

How the data were processed

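DNase I hypersensitive sites and footprints of 3T3-L1 cells at 4 h were used as deposited. Both lists are pooled calls from 1 library on mm9, per the labels and the submitters' processing notes, which name HOMER. Versions and the footprint caller are not given in the sources used. By the deposited files' names, sites have a false discovery rate of 0, and footprints one of 0.01 with a maximum width of 30 bp. The score, a deposited column headed p-value per the file headers, was used only to rank footprints. No depth is given, so the precision of a single site is unknown.

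Members and lists were chosen with earlier results of these data known. Starts were raised by 1 from the BED form, assumed for both lists. Footprints were assigned to sites at 1 bp of overlap, and both counts were checked with bedtools 2.31.1. Expected footprints are means over all sites in 50 classes of width, the widest of them broad, or, added after the data were seen, over the 500 sites nearest in width. Tiles began at each chromosome's first site, and a site was counted in the tile of its start. The text names, in each window, the 5 sites with the most footprints, the 3 widest and the 3 lowest scores. Other named sites were chosen after their values were seen. RefSeq promoters served for motifs. Python 3.11.15 was used. Assignment and width classes were tested on simulated data. Results were recomputed under other thresholds, window ends, merging and overlap.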

Additional observations from a re-analysis of the deposited data

How the results depend on the processing

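No paired analysis was possible because sites and footprints come from a single library whose runs were pooled, and RNA samples, numbered by experiment, have no values in these lists. Of 58 values under alternatives, 48 stayed within 1.5 times the reported count or ratio, or within the binomial interval of the reported share, and 10 moved. Several of the 48 could not move, such as those that required a whole site in the window, since no site crosses an edge. Some of the 10 moved by construction, since keeping 50% of footprints or of sites takes an average count of them past 1.5 times. With the stronger 50% of footprints by score, footprints fell to 33 in the Dlk1-Meg3 window and to 4 in the Igf2-H19 window, the share of Igf2-H19 sites that held one to 13.3% and the Igf2-H19 ratio to the expected number to 0.221. With the wider 50% of sites, the windows held 10 and 8 sites and the Dlk1-Meg3 share was 100%, as narrow sites were removed. Igf2-H19 footprints were 11 in the window narrowed by 20 kb, 38 in the window widened by 20 kb, and 13 without the site with the most footprints, a setting chosen after the data were seen. The Dlk1-Meg3 ratio lay above 1 and the Igf2-H19 ratio below 1 under every alternative run, from 1.09 to 1.27 and from 0.221 to 0.792. These alternatives largely reuse the same sites. The stretches of equal length below and above had ratios of 0.464 (2 sites) and 1.02 for Dlk1-Meg3, and of 0.892 and 1.33 for Igf2-H19. The reported ratios of both windows lay within the range of these 4 values. Depth is unknown, which limits every count of footprints.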
